A study of Homo sapiens with 14 samples.

Results

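In SH-EP cells, a widely used human line of neuroblastoma, 41 genes carried reads in a line with n-Myc SPARK-ON and almost none in the matching n-Myc control line. They were chosen by their raw read counts: at least 200 reads summed over the 3 SPARK-ON DMSO libraries and at most 5 reads summed over the 3 control DMSO libraries. The 41 are taken from 61533 genes in the deposited table, and they make up 0.373% of the 11005 genes that reached 200 reads in SPARK-ON DMSO cells. With the lines exchanged in the same rule, 10 genes qualified, 0.0914% of 10942. These read counts chose the genes, so the difference between the lines in DMSO is given below as a description, with no test.

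The groups were SPARK-ON cells with lenalidomide (3 libraries), SPARK-ON cells with its solvent DMSO (3 libraries), control cells with lenalidomide (2 libraries) and control cells with DMSO (3 libraries). Each library was made from polyA RNA. Per the series design, the SPARK-ON line is a single clone that holds n-Myc SPARK-ON below its threshold for phase separation, lenalidomide brings about the phase separation without altering how much of the protein there is, and the control line has no SPARK-ON. A difference between the lines can therefore not be told apart from a difference of that 1 clone. Dose and time of treatment were not given in the labels.

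n-Myc, the product of MYCN, is a transcription factor that pairs with MAX, binds E-box sequences such as CACGTG and is a known driver of neuroblastoma. Phase separation gathers a protein into condensates, dense droplets without a membrane. Genes that are silent in one cell line and active in a close relative are often tissue-restricted: germline genes such as SSX1 and PRDM9 are kept silent in most body cells, by DNA methylation among other means. SH-EP is a substrate-attached, mesenchymal-type neuroblastoma line.

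Libraries held 6614671 to 21511684 reads, with SPARK-ON lenalidomide replicate 3 the smallest. A count of 0 therefore allowed up to 0.143 to 0.441 CPM (reads relative to the scaled library size) in a library, taking 3 reads as the limit; limits and counting intervals here cover counting error only. A first principal component parted the 2 lines and held 74.9% of the variance. SPARK-ON lenalidomide replicate 3 and control DMSO replicate 1 each stood apart on a later component, with 4.02% and 4.68% of the variance. MYCN itself averaged 2508 ± 101 CPM in SPARK-ON lenalidomide cells, 2277 ± 109 in SPARK-ON DMSO cells, 2546 ± 305 in control lenalidomide cells and 2426 ± 292 in control DMSO cells (SD; n = 3, 3, 2 and 3). The adrenergic neuroblastoma markers PHOX2A and ISL1 were at 0 in all 11 libraries, as were the T cell, basal keratinocyte and red cell markers CD3E, KRT5 and HBB. The adrenergic marker GATA3, in contrast, had 4.74 to 8.73 CPM over the 11 libraries. The 10 mesenchymal markers had a summed level of 2145 to 2424 CPM over the SPARK-ON libraries and 3765 to 3977 CPM over the control libraries. In DMSO 1 of the 10 was called higher and 3 lower in SPARK-ON cells, where 21.1% and 20.4% of all genes tested were. The 8 adrenergic markers summed to 5.001 to 8.28 CPM in SPARK-ON and 6.45 to 8.73 CPM in control libraries, and the 10 markers of other cell types to 0.665 to 3.82 CPM in SPARK-ON and 0.860 to 1.26 CPM in control libraries; the epithelial marker EPCAM reached at most 2.06 CPM in any library. Of the 2 adrenergic markers tested 1 was called higher, and of the other cell types' markers 1 was tested and not called. Beside the same shares over all genes, nothing is read from marker counts this small. The adrenergic marker called was HAND2, with 57 reads in SPARK-ON and 6 in control DMSO cells (log2 difference 3.28). With so few control reads, HAND2 could hardly be called lower. GATA3 was not called. Their part in the results below was not tested.

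Of the 41 genes, 21 matched an entry in RefSeq's table of promoter windows (GRCh38.p14), each running from 250 bases before a gene's start to 50 bases after it. A CpG comparison with other genes is void, because fewer than 80% of the 41 have a window. The windows of 3 marker genes and of the germline gene SSX1 and the nucleosome assembly gene NAP1L3 are shown, since these genes had many reads in one line and at most 4 in DMSO cells of the other. Each is written 5′ to 3′ on the gene's own strand, and capitals mark CG dinucleotides.
CCDC172: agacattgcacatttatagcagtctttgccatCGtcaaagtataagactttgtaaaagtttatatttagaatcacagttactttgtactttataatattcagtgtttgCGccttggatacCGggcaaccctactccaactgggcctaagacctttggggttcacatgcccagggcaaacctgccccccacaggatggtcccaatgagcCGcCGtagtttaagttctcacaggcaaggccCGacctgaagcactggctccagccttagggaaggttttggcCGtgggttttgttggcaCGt
ACTR3C: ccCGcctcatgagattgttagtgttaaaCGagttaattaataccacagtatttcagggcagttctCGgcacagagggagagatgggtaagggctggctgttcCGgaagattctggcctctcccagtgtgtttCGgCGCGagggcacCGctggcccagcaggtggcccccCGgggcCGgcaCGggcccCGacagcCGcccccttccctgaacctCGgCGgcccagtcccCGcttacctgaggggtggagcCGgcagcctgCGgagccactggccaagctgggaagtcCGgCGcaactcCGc
LINC01234: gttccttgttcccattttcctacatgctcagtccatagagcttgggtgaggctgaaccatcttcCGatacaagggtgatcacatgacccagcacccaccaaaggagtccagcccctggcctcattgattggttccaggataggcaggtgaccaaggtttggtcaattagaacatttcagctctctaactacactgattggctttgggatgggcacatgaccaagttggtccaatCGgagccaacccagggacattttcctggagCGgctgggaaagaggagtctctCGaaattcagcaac
SSX1: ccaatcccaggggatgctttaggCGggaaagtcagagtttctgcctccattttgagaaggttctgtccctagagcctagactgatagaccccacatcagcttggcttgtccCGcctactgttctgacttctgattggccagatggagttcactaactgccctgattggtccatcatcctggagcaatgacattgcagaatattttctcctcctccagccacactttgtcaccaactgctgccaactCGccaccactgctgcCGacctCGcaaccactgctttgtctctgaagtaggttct
NAP1L3: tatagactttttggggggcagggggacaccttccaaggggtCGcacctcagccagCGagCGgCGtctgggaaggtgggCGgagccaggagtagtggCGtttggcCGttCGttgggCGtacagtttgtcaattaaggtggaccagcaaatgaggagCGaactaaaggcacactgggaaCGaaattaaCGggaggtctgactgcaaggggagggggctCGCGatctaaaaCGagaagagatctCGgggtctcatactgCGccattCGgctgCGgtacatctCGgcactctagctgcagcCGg
The CCDC172 window lies at chr10:116324198-116324497 (plus strand), the ACTR3C window at chr7:150323496-150323795 (minus), the LINC01234 window at chr12:113773634-113773933 (minus), the SSX1 window at chrX:48255142-48255441 (plus) and the NAP1L3 window at chrX:93673529-93673828 (minus). ACTR3C and NAP1L3 each held 21 CG dinucleotides, whereas CCDC172 held 8, SSX1 held 5 and LINC01234 held 4. For ACTR3C, RefSeq lists 4 starts, of which 1 is shown. The E-box CACGTG, which reads the same on both strands, was in the windows of 0 of the 21 matched genes, against 13.2% of the 8895 genes that had a window and at least 200 reads in SPARK-ON DMSO cells, and in 7.26% of all 35116 windows. The TATA motif TATAAA, searched on both strands, was found for 1 of the 21 genes, against 7.81% of the 8895 genes, and in 11.5% of all windows. These are matches of letters and describe no binding, and with 20 of the 41 genes unmatched nothing is read from the shares.

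The difference that chose the genes was close to on against off. Their reads summed to 22362 over the SPARK-ON DMSO libraries and to 54 over the control DMSO libraries, and 22 of the 41 had 0 reads in all 3 control DMSO libraries. In these bulk libraries, few cells that express a gene and little of its RNA in each cell cannot be told apart. Summed over the 41 genes, the level was 487, 496 and 497 CPM in the SPARK-ON lenalidomide libraries and 435, 434 and 436 CPM in the SPARK-ON DMSO libraries. In control cells the sum was 2.34 and 2.34 CPM in the lenalidomide libraries and 1.19, 1.011 and 0.717 CPM in the DMSO libraries. Every SPARK-ON library had reads from all 41 genes. A control library had reads from 13 or 10 of them with lenalidomide and from 11, 8 or 11 in DMSO. Within SPARK-ON DMSO cells the coefficient of variation of a gene over the 3 libraries had a median of 10% and ran between 1.14% (PGAP4) and 27.5% (AC244153.1).

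**Figure D1:**
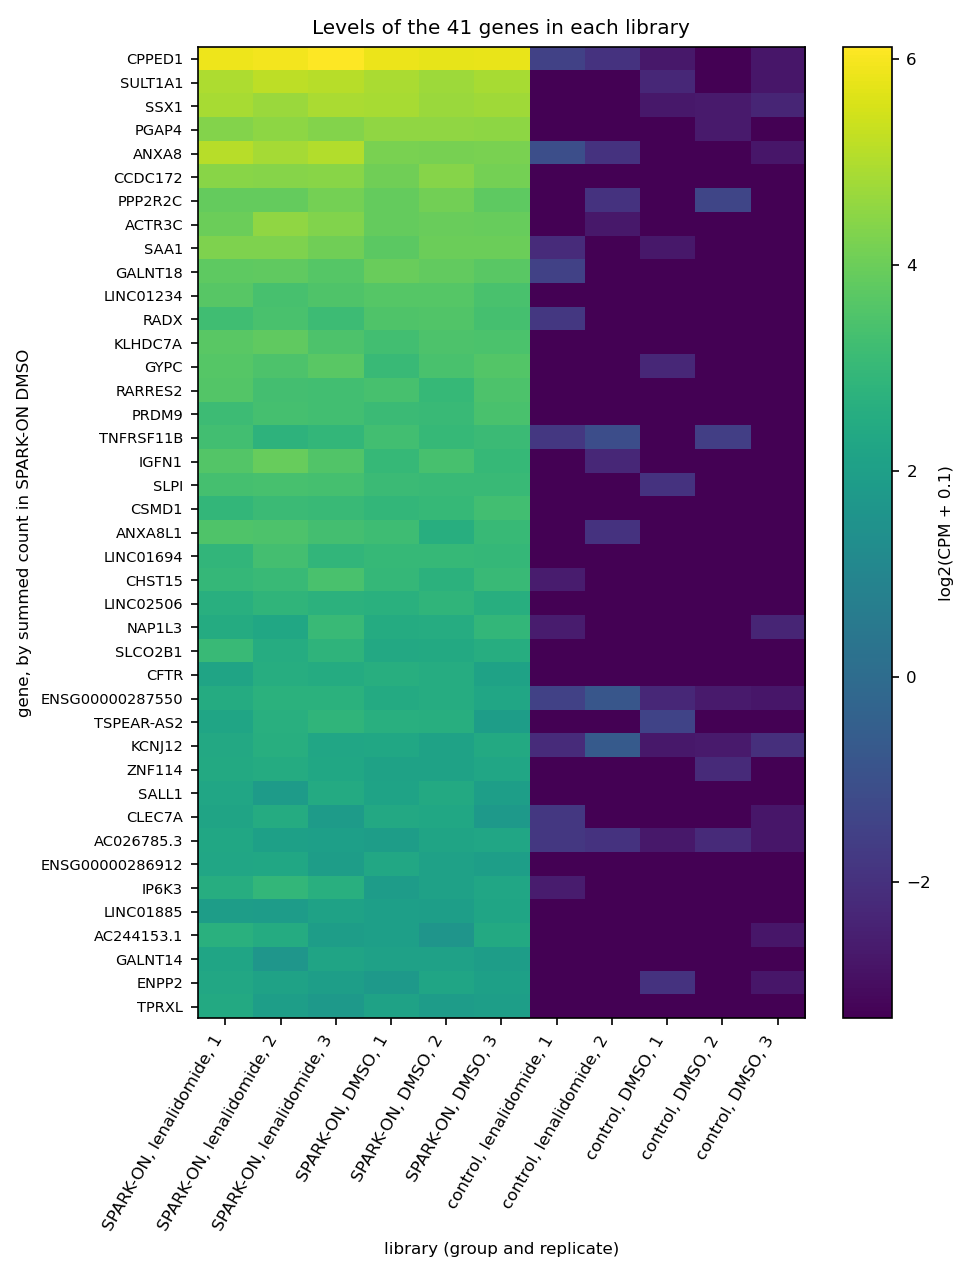
Level of each of the 41 genes (rows) in each of the 11 libraries (columns), as log2(CPM + 0.1), with SPARK-ON lenalidomide, SPARK-ON DMSO, control lenalidomide and control DMSO libraries from left to right. All 41 rows have reads in every SPARK-ON library, and 8 to 13 of them have any read in a given control library.

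At the edge of the rule, TPRXL, ENPP2 and GALNT14 were just inside with 200, 202 and 205 reads in SPARK-ON DMSO cells, and PPP2R2C, TSPEAR-AS2 and KCNJ12 with 5 reads in control DMSO cells. NELL2, ZFP3 and USP43 were just outside with 170, 164 and 162 reads in SPARK-ON DMSO cells and 0 in control DMSO cells. LINC01484, SLC47A2 and SERPINA1 had 201, 495 and 314 reads in SPARK-ON DMSO cells and were just outside through 6, 7 and 7 reads in control DMSO cells.

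CCDC172 (10:116324428-116380029, plus strand of GRCh38, GENCODE 29) encodes a coiled-coil protein known mainly from testis. It had 21.5, 21.3 and 21.5 CPM in SPARK-ON lenalidomide libraries and 16.7, 20.9 and 17.5 CPM in SPARK-ON DMSO libraries. All 5 control libraries were at 0.
ACTR3C (7:150243916-150323725, minus strand) is a short relative of the actin-related protein ACTR3, a core subunit of the Arp2/3 complex that branches actin filaments. It had 15.9, 23.2 and 20.2 CPM with lenalidomide and 14.7, 15.4 and 14.98 CPM in DMSO in SPARK-ON cells. In control cells 1 lenalidomide library had 1 read, 0.0532 CPM, and the other 4 libraries were at 0.
GALNT18 (11:11270876-11622005, minus strand) belongs to the GalNAc-transferase family, which begins mucin-type O-glycosylation. Its SPARK-ON level was 13.6, 14.1 and 12.2 CPM with lenalidomide and 15.5, 14.2 and 12.9 CPM in DMSO. Control lenalidomide replicate 1 had 0.253 CPM, from 4 reads, and the other 4 control libraries were at 0.
LINC01234 (12:113679459-113773683, minus strand) is a long intergenic noncoding RNA. SPARK-ON cells had 12.7, 10.3 and 11.5 CPM with lenalidomide and 12.3, 12.4 and 10.6 CPM in DMSO, and all 5 control libraries were at 0. For all 4 genes the SPARK-ON and control libraries were far apart, and with lenalidomide and in DMSO the SPARK-ON libraries overlapped for GALNT18 and LINC01234 but not for CCDC172 and ACTR3C.

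**Figure D2:**
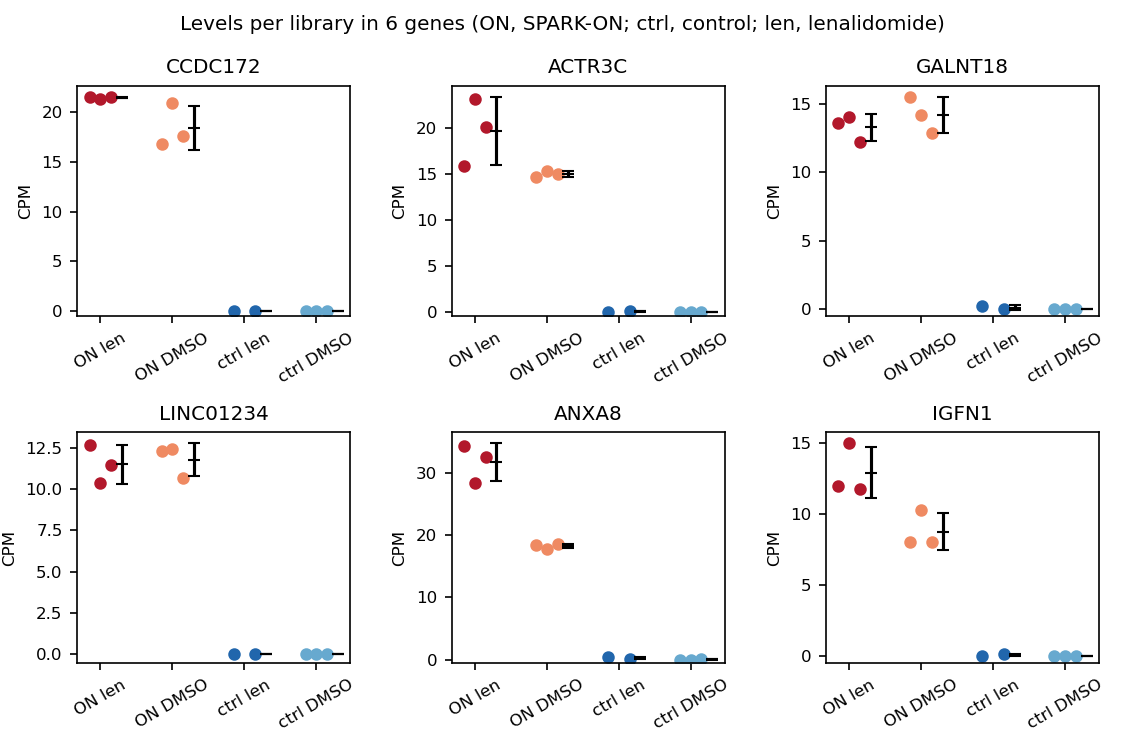
CPM of CCDC172, ACTR3C, GALNT18, LINC01234, ANXA8 and IGFN1 in each library (points), with the mean and SD of each group; n = 3, 3, 2 and 3 from left to right. ANXA8 sits between 28.5 and 34.3 CPM in SPARK-ON lenalidomide libraries, above its 17.9 to 18.6 CPM in SPARK-ON DMSO libraries.

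By known role, the 41 genes were mixed: 8 enzymes, 7 germline or nuclear proteins, 5 secreted proteins, 6 membrane proteins, 4 cytoskeletal or annexin genes, 3 not assigned and 8 pseudogene or noncoding genes. These roles were assigned from general knowledge, with earlier results of these data known. Beside LINC01234, TPRXL, TSPEAR-AS2, AC244153.1 and AC026785.3, the last-named kind held LINC01694, LINC02506 and LINC01885, with no read in any control library. Not assigned were KLHDC7A, a kelch-domain protein with 535 reads in SPARK-ON DMSO cells and 0 in control DMSO cells, and the unnamed genes ENSG00000287550 and ENSG00000286912.

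Among the enzymes and their subunits, CPPED1 (16:12659799-12804017), a calcineurin-like phosphatase, had the most reads. It had 59.4, 61.1 and 69.4 CPM in SPARK-ON lenalidomide libraries, 56.9, 54.8 and 56.2 CPM in SPARK-ON DMSO libraries, 0.253 and 0.16 CPM in control lenalidomide libraries, and 0.0543, 0 and 0.0478 CPM in control DMSO libraries. SULT1A1, a phenol sulfotransferase, averaged 28.7 ± 1.67 CPM in SPARK-ON DMSO cells (SD, n = 3) with 3 reads in all over the control DMSO libraries. PGAP4, a Golgi enzyme that adds a sugar side chain to GPI anchors, averaged 23.1 ± 0.263 CPM with 1 read in control DMSO cells. PPP2R2C, a brain-enriched regulatory subunit of protein phosphatase PP2A, averaged 15.2 ± 1.78 CPM with 5 reads. GALNT14, like GALNT18 a GalNAc-transferase, CHST15, a chondroitin sulfotransferase, and IP6K3, an inositol hexakisphosphate kinase, had 205, 391 and 213 reads in SPARK-ON DMSO cells and 0 in control DMSO cells.

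SSX1 (X:48255317-48267444), a cancer-testis antigen fused to SS18 in synovial sarcoma, led the germline and nuclear genes. It had 29.2, 25.7 and 29.9 CPM in SPARK-ON lenalidomide libraries and 29.2, 25.6 and 27.3 CPM in SPARK-ON DMSO libraries; it was at 0 in both control lenalidomide libraries and had 0.0543, 0.0595 and 0.0956 CPM in control DMSO libraries. PRDM9 (5:23443586-23528597), the meiotic histone methyltransferase that places recombination hotspots, had 8.84, 10.03 and 9.56 CPM with lenalidomide and 8.46, 8.31 and 10.5 CPM in DMSO in SPARK-ON cells, and no read in control cells. RADX, a single-strand DNA-binding protein of replication forks, and NAP1L3, of the nucleosome assembly protein family, averaged 11.1 ± 0.925 and 6.20 ± 1.10 CPM in SPARK-ON DMSO cells. The zinc-finger genes SALL1, a developmental transcription factor, and ZNF114 averaged 4.46 ± 0.699 and 4.41 ± 0.297 CPM.

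The secreted proteins were SAA1, an acute-phase apolipoprotein, RARRES2, the chemoattractant chemerin, SLPI, a protease inhibitor of mucosal fluids, TNFRSF11B, the decoy receptor osteoprotegerin, and ENPP2, autotaxin, which makes lysophosphatidic acid. Their mean levels in SPARK-ON DMSO cells ran between 3.94 ± 0.662 CPM for ENPP2 and 14.95 ± 1.57 CPM for SAA1 (SD, n = 3). TNFRSF11B was the one with the most control reads, 10 with lenalidomide and 4 in DMSO. The membrane proteins were GYPC, a glycophorin, CSMD1, a large protein with CUB and Sushi domains, SLCO2B1, an organic anion transporter, CFTR, the epithelial chloride channel, KCNJ12, an inward-rectifier potassium channel, and CLEC7A, the beta-glucan receptor dectin-1. Mean levels ran between 4.42 ± 0.999 CPM for CLEC7A and 10.3 ± 1.75 CPM for GYPC in SPARK-ON DMSO cells. CFTR, CSMD1 and SLCO2B1 had no read in any control library. Beside ACTR3C, the cytoskeletal and annexin group held IGFN1, a skeletal muscle protein with immunoglobulin and fibronectin domains, and the annexin genes ANXA8 and ANXA8L1, of a family of calcium-dependent membrane-binding proteins.

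Several of these genes have near-identical copies, and the sources used here do not say how reads shared between copies were counted. The values of ANXA8 and ANXA8L1, SULT1A1, SAA1, SSX1, KCNJ12 and PRDM9 are uncertain for that reason. Nor do they state the strand setting. TSPEAR-AS2 lies opposite TSPEAR, which had 69 reads in SPARK-ON DMSO cells and 0 in control DMSO cells, and AC244153.1 lies opposite ARHGAP23, with 3265 reads in SPARK-ON DMSO cells and 1283 in control DMSO cells, so reads of these pairs cannot be told apart. ACTR3C overlaps LRRC61 on the other strand, which had 18 reads in SPARK-ON DMSO cells and 0 in control DMSO cells.

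Noncoding genes took a larger share of the 41 than of all genes with the same minimum of reads. This is a description, with no test, and the 2 sets were not matched for level. Protein-coding genes were 31 of the 41 (75.6%), against 95.2% of the 11005 genes with at least 200 reads in SPARK-ON DMSO cells. Long noncoding RNAs were 7 (17.1% against 2.76%), 1 was a pseudogene, TPRXL (2.44% against 1.63%), and 2 had no GENCODE 29 entry (4.88% against 0.245%). The 39 with a position were spread over 18 chromosomes. Chromosome 10 held 4 (10.3% against 4.14% of the background genes) and chromosome 21 held 2 (5.13% against 0.929%). The 4 on chromosome 10 include ANXA8 and ANXA8L1, which are near-identical copies and cannot be counted as separate evidence. There were 3 each on chromosomes 2, 7, 8, 11, 16 and X, and none on 13, 14, 15, 18 and 22.

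**Figure D3:**
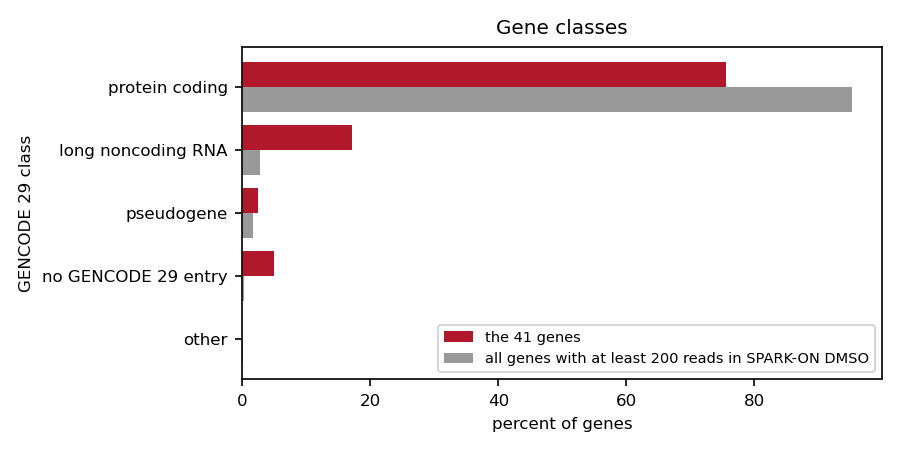
Percent of genes in each biotype class (bars from 0), for the 41 genes and for all 11005 genes with at least 200 summed reads in SPARK-ON DMSO cells. Long noncoding RNAs make up 17.1% of the 41 genes and 2.76% of all 11005.

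Per kilobase of annotated exon, most of the 41 were low next to other genes. Their median level in SPARK-ON DMSO cells was 2.32 CPM per kb (39 genes with a length), against 7.43 CPM per kb over the background genes, whose quartiles were 3.14 and 17.2. Above the background median lay 7 of them. SSX1 was highest at 21.1 CPM per kb, followed by SAA1 at 18.8, AC026785.3 at 15.04, SLPI at 14.0 and CCDC172 at 10.4. CSMD1 was lowest at 0.440 CPM per kb. The rule sets a minimum on the summed reads of both sets.

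In the lenalidomide libraries, which the rule did not use, all 41 genes were again higher in SPARK-ON than in control cells. Each gene's 3 SPARK-ON lenalidomide libraries lay above both control lenalidomide libraries; the lowest SPARK-ON value was 2.997 CPM and the highest control value 0.532 CPM. By edgeR's quasi-likelihood test with Benjamini-Hochberg adjustment over 16056 genes, 41 of 41 were called higher and 0 lower, where 19.7% of all genes tested were called higher. Of all genes, 30.4% had SPARK-ON libraries that all lay above the control libraries. All 41 passed the filter on low counts, as their SPARK-ON reads ensure. The choice of the genes by the same difference in DMSO had largely set these calls, so they are no separate support. The largest adjusted p among the 41 was 8.85e-07, for CLEC7A. That fit shares its estimate of spread with the DMSO libraries. A fit of the 5 lenalidomide libraries alone also called 41 of 41 higher, against 22.5% of all genes.

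Sizes were bounded by the depth of the control libraries. At 0 in both control lenalidomide libraries were 24 of the 41; taking 3 reads over the 2 libraries as the limit, these genes were at least 43.9- to 389-fold higher in SPARK-ON lenalidomide cells, with a median bound of 86.8. SULT1A1 was at least 389-fold higher, SSX1 at least 322-fold, PGAP4 at least 248-fold, CCDC172 at least 247-fold and LINC01234 at least 133-fold. A further 10 had 1 to 3 reads. For ACTR3C, with 1 read, the ratio of SPARK-ON to control cells was 680 (95% exact counting interval 122 to 26886). The other 7 had at least 4 reads in control lenalidomide cells. Among those, the ratio was 306 for CPPED1 (148 to 761), 122 for ANXA8 (63.9 to 267), 117 for GALNT18 (45.6 to 432), 28.0 for TNFRSF11B (15.04 to 59.0) and 25.0 for AC026785.3 (11.3 to 69.1). The smallest ratios were 16.2 for ENSG00000287550 (9.32 to 31.0) and 15.6 for KCNJ12 (8.77 to 30.7).

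Applied to the lenalidomide libraries with the control maximum scaled to 3 reads over 2 libraries, the rule held for 27 of the 41 genes. Of the 14 that did not meet it, 8 had fewer than 200 reads in SPARK-ON lenalidomide cells and 7 had more than 3 in control lenalidomide cells, AC026785.3 being in both sets. The SPARK-ON lenalidomide libraries include the smallest of the study, and raw reads were counted here as in the rule. GALNT14, for example, had 154 reads in SPARK-ON lenalidomide cells and 0 in control lenalidomide cells.

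When SPARK-ON cells with lenalidomide were set against those in DMSO, 1 of the 41 genes passed the test. ANXA8 rose, with a log2 change of 0.80 (SE 0.127; adjusted p = 0.0162 by edgeR's quasi-likelihood test); 0 of the 41 fell. Of all 16056 genes, 0.0685% were called higher and 0% lower, and 860 had an unadjusted p under 0.05. ANXA8 (10:47460162-47484158, minus strand) had 34.3, 28.5 and 32.7 CPM with lenalidomide and 18.5, 17.9 and 18.6 CPM in DMSO, with no overlap. The call was lost without any 1 of the 6 SPARK-ON libraries, with an adjusted p of 0.0966 to 0.235 and a log2 change of 0.73 to 0.87, and in the fit with the replicate number as a block (adjusted p = 0.0963). In the fit of the 6 SPARK-ON libraries alone it was 0.79 (adjusted p = 4.40e-09).

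A further 4 genes had an unadjusted p under 0.05 and did not pass the adjustment. IGFN1 had 11.9, 14.98 and 11.8 CPM with lenalidomide and 7.98, 10.3 and 7.98 CPM in DMSO, with no overlap (log2 change 0.57, SE 0.190, adjusted p = 0.731 by edgeR). IP6K3 had 5.75, 7.58 and 6.18 CPM with lenalidomide and 3.60, 4.09 and 4.65 CPM in DMSO, again apart (0.66, SE 0.247, adjusted p = 0.812). ANXA8L1 had 11.3, 11.01 and 9.85 CPM with lenalidomide and 9.06, 5.94 and 8.18 CPM in DMSO (0.48, SE 0.213, adjusted p = 0.909). ACTR3C differed by 0.39 (SE 0.156, adjusted p = 0.825). In the 6-library fit, which takes the spread from SPARK-ON cells only, 3 of the 41 were called higher against 1.79% of 14652 genes, and 0 lower against 0.805%: ANXA8, IGFN1 (0.58, adjusted p = 0.00842) and ACTR3C (0.39, adjusted p = 0.0488). IP6K3 stood at the threshold there, with an adjusted p of 0.050 that did not pass.

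The other genes had smaller differences between lenalidomide and DMSO in SPARK-ON cells, between -0.21 (RADX) and 0.39 (AC244153.1). CCDC172 was at 0.22 (SE 0.132), LINC01234 at -0.03 (SE 0.163) and GALNT18 at -0.08 (SE 0.181), none of which passed. Of the 41 log2 differences, 30 were above 0 and 11 below, with a median of 0.11; over all genes tested 51.7% were above 0 and the median was 0.0065. All 3 lenalidomide libraries lay above all 3 DMSO libraries for 12 of the 41 genes and below them for 0, where the shares over all genes were 9.62% and 8.17%. The SPARK-ON DMSO libraries of this comparison are those that chose the genes. By role, the median was 0.52 for the 4 cytoskeletal and annexin genes, 0.23 for the 3 not assigned, 0.10 for enzymes, 0.04 for germline and nuclear genes, 0.15 for secreted and 0.11 for membrane proteins, and 0.07 for pseudogene and noncoding genes. The cytoskeletal and annexin genes are ANXA8, ANXA8L1, IGFN1 and ACTR3C, all named above for an unadjusted p under 0.05. Roles were assigned with earlier results of these data known, so nothing is read from these medians. ANXA8 and ANXA8L1 are near-identical copies and cannot be counted as separate evidence.

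**Figure D4:**
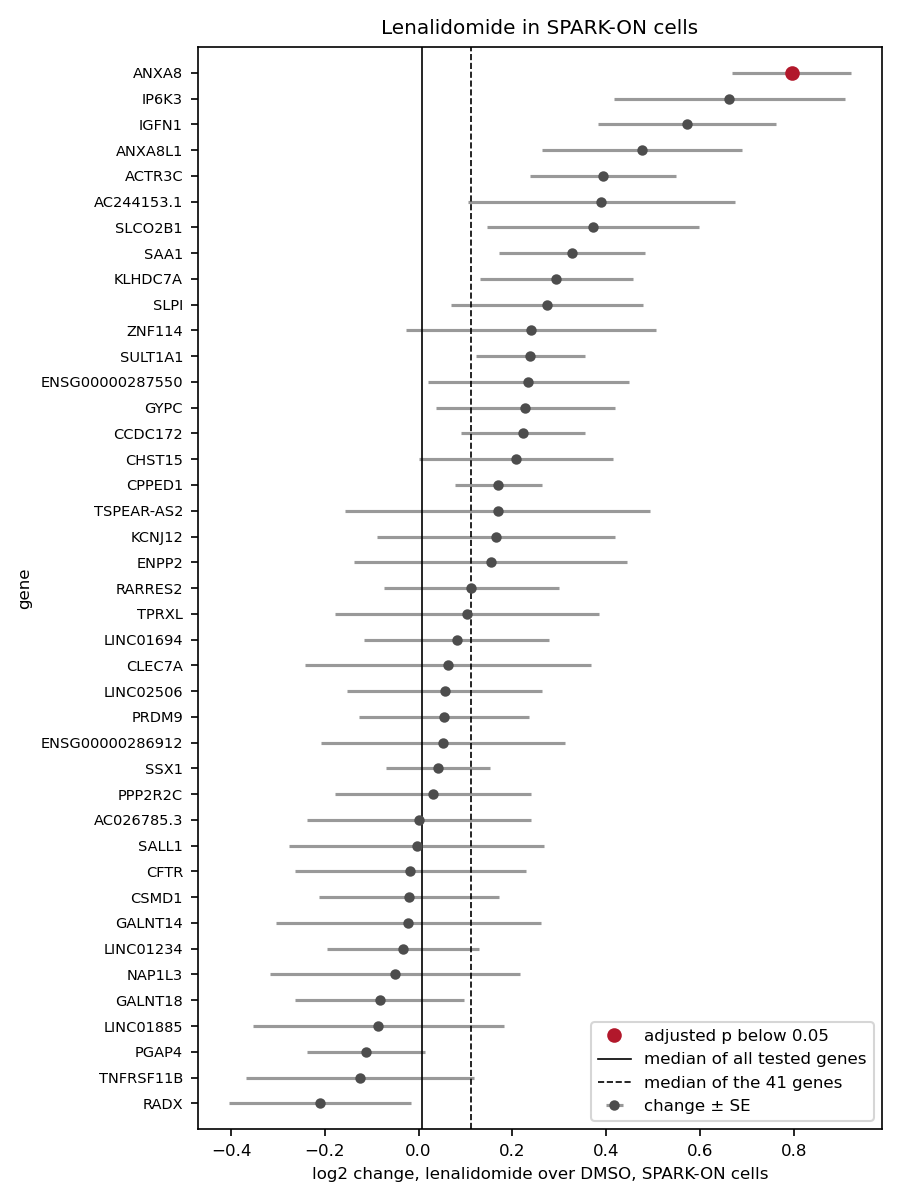
Log2 change with lenalidomide over DMSO in SPARK-ON cells for each of the 41 genes, with its SE, in order of size; lines mark the medians of the 41 genes and of all genes tested. Values run between 0.80 for ANXA8, which passed the test, and -0.21 for RADX.

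In control cells lenalidomide brought none of the 41 genes near its SPARK-ON level. Their reads summed to 81 over the 2 control lenalidomide libraries and 54 over the 3 control DMSO libraries, and the highest value of any gene in any control lenalidomide library was 0.532 CPM (KCNJ12). No test of the 41 is read from control cells, nor of the difference between the lines in the response to lenalidomide: the genes were chosen for having at most 5 reads in the control DMSO libraries, and they entered the fit through their SPARK-ON reads.

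Of the genes beside the 41 on the chromosome, a larger share was higher in SPARK-ON cells than of all genes. Within 100 kb of a start of one of the 41 lay the starts of 45 other tested genes, around 22 of the 39 with a position. In DMSO, 26 of these 45 (57.8%) were called higher and 2 (4.44%) lower in SPARK-ON than in control cells by edgeR's quasi-likelihood test, where 21.1% of all genes tested were called higher and 20.4% lower. Their median log2 difference was 0.75, against 0.011 over all genes. By distance, the share called higher was 68.2% of 22 genes within 50 kb and 47.8% of 23 genes at 50 to 100 kb; it was 31.4% of 70, 31.2% of 138 and 31% of 274 genes at 100 to 250, 250 to 500 and 500 to 1000 kb. A gene near more than 1 of the 41 was counted once, at its nearest. These shares are descriptions, and neighbouring genes are not independent of each other. They come from the same DMSO libraries that chose the 41. Of the 45 genes, 6 had 0 reads in control DMSO cells and so could only be called higher. ZBED10P, LINC02111, PI3 and ANTXRL, also called higher, had 2, 2, 4 and 7 reads there and so could hardly be called lower.

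**Figure D5:**
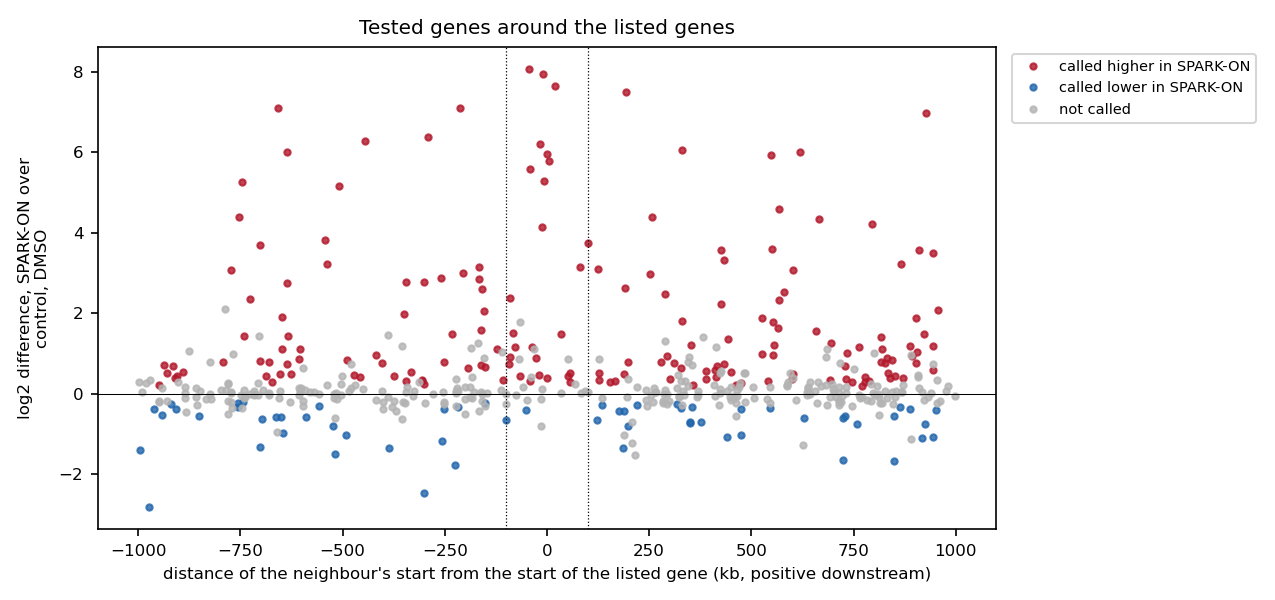
Log2 difference of SPARK-ON over control cells in DMSO for tested genes within 1000 kb of one of the 41 (points), against distance of the starts in kb; dotted lines mark 100 kb on either side. Within 100 kb, 26 of 45 genes were called higher and 2 lower.

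NAP1L3 and FAM133A have starts 0.445 kb apart and point away from each other. FAM133A averaged 39.1 ± 2.06 CPM in SPARK-ON DMSO cells and 0.635 ± 0.323 CPM in control DMSO cells (SD, n = 3 each), a log2 difference of 5.95 (SE 0.19, adjusted p = 3.19e-14). Around CLEC7A, whose relatives CLEC1A and OLR1 are also C-type lectin receptors, CLEC1A was at least 28.8-fold and OLR1 at least 6.56-fold higher in SPARK-ON cells, with no read in control DMSO cells; the autophagy gene GABARAPL1 was higher by 1.51. Beside TNFRSF11B, the collectin gene COLEC10 was at least 37.9-fold higher, and beside SAA1 its near copy SAA2 at least 10.6-fold. SAA2 had 0.720, 0.066 and 0.818 CPM in the SPARK-ON DMSO libraries, and how reads shared with SAA1 were counted is not known. ZNF488, 99.9 kb from ANXA8, averaged 13.8 ± 1.81 CPM in SPARK-ON DMSO cells and 1.02 ± 0.0485 CPM in control DMSO cells.

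ACTR3C and RARRES2 were the only 2 of the 41 with starts within 100 kb of each other, 17.9 kb apart on chromosome 7. Their region held further genes that were higher in SPARK-ON cells. REPIN1, a zinc-finger gene, averaged 282 ± 4.11 CPM in SPARK-ON DMSO cells and 152 ± 1.33 CPM in control DMSO cells (log2 difference 0.90), ZNF775 was higher by 1.15, and ZBED10P had a ratio of 46.5 (95% counting interval 12.5 to 390). With the neighbours of this pair left out, 22 of 39 (56.4%) were called higher. Near the other genes the differences were mixed. TSPEAR-AS1, beside TSPEAR-AS2, had no read in control DMSO cells and was at least 34.6-fold higher in SPARK-ON DMSO cells, and LINC02111, beside AC026785.3, had a ratio of 21.3 (95% counting interval 5.52 to 182). PI3, which encodes the protease inhibitor elafin, lies near SLPI and was higher by 3.16, ANTXRL near ANXA8L1 by 2.38, ARHGAP23 at AC244153.1 by 1.47 and EHD3 near GALNT14 by 1.16 (log2 differences). RNF20, 0.314 kb from PGAP4, was higher by 0.39, with 82.9 CPM in SPARK-ON and 63.4 CPM in control cells. GFRA1, a GDNF-family coreceptor 51.0 kb from CCDC172, was lower, at 165 ± 7.62 CPM in SPARK-ON and 217 ± 10.1 CPM in control cells (log2 difference -0.40), and LIG1, a DNA ligase near ZNF114, was lower (-0.64). GALNT18 and LINC01234 had no other tested gene with a start within 100 kb. TNFRSF11B and ENPP2, 721 kb apart on chromosome 8, were the other pair among the 41 within 1000 kb.

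GALNT14 and GALNT18 were both among the 41, but most other relatives of the marker genes were expressed in both lines. Among 16 other tested genes of the Arp2/3 complex and other actin-related proteins, some of them parts of dynactin or of chromatin remodellers, 1 was called higher in SPARK-ON than in control DMSO cells (ARPC1B) and 4 lower by edgeR's test. ACTR3 averaged 276 ± 7.5 CPM in SPARK-ON and 313 ± 3.5 CPM in control cells (-0.18, adjusted p = 0.0444), and ACTR3B differed by -0.11 (adjusted p = 0.592). Of 10 other tested GalNAc-transferases, 2 were higher, GALNT13 by 1.48 and GALNT16 by 0.93, and 3 lower, GALNT17 (-2.64, with 5.93 CPM in SPARK-ON and 37.4 CPM in control cells), GALNT5 (-0.995) and GALNT1 (-0.49). Among 9 other tested cancer-testis and germline genes, 3 were higher and 0 lower: SPANXB1 by 2.09, LIN28B with 86 reads in SPARK-ON and 0 in control cells, and PRAME with 42 reads in SPARK-ON and 0 in control cells. With 0 reads in control DMSO cells, LIN28B and PRAME could only be called higher. PRAME varied widely in SPARK-ON DMSO cells, at 0.824 ± 0.848 CPM (SD). Only 11 of the 46 genes on this list had enough reads to be tested. None of the 25 tested HOX genes was among the 41, with 4 higher and 7 lower. Of 18 genes that place, read or remove DNA methylation or belong to Polycomb and related chromatin regulators, 3 were higher and 7 lower. The higher ones were CBX2 (0.45), SETDB1 (0.32) and EZH1 (0.25). The lower ones were TET1 (-0.72), which removes DNA methylation, the methyltransferases DNMT3A (-0.58) and DNMT1 (-0.42), BMI1 (-0.47), TRIM28 (-0.42), EZH2 (-0.29) and UHRF1 (-0.20). The backgrounds for these counts are the 21.1% higher and 20.4% lower given above.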

How the data were processed

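PolyA RNA of SH-EP cells was sequenced. The values are raw counts per gene, in whole numbers without normalization, as the authors deposited them. FastQC, fastp, HTSeq, edgeR and hg38 are named in the submitters' processing notes; the aligner, versions, strand setting, handling of shared reads and annotation release are not given in the sources used here. Columns were matched to samples by their labels; 3 columns matched no labelled sample and were not used, so the planned baseline levels are not given.

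Counts of 11 libraries in 4 groups were tested with edgeR 4.0.16 in R 4.3.3: filterByExpr (minimum count 10; 16056 genes), TMM scaling, a one-way layout fitted by glmQLFit, two-sided glmQLFTest contrasts and Benjamini-Hochberg adjustment over all genes tested, called below 0.05. CPM are relative to the TMM-scaled library size, SD is over libraries, and SE is the log2 change divided by the square root of F. The biological coefficient of variation was 9.40%. Positions and lengths are from GENCODE 29 (GRCh38), which placed 58312 of 61533 identifiers; names matched for 61415. The procedure was tested on simulated data. Alternatives were other scalings (RLE, library size), filters, DESeq2 1.42.0, only the groups compared, a replicate block, a stricter threshold, other windows and limits, and omission of each library. Figures were drawn with matplotlib 3.10.9.

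The genes, their roles and the gene lists were chosen with earlier results of these data known. The lists were Arp2/3 and actin-related genes, GALNT genes, cancer-testis and germline genes, HOX genes, DNA methylation and Polycomb genes, mesenchymal and adrenergic neuroblastoma markers, and markers of other cell types; the values of some single markers are not reported here. Genes named by rule are the 4 markers, the 15 highest by mean CPM in SPARK-ON DMSO cells, the 5 with the smallest p for lenalidomide, those with more than 3 reads in a control lenalidomide library, those at the limits, close pairs and list members; the others of the 41, the neighbours beyond those of the markers, and the members of the other lists were named after their values were seen. Whether replicates are separate cultures is not stated in the labels; p-values therefore cover no more than the spread between these samples, which may be technical.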

Additional observations from a re-analysis of the deposited data

How the results depend on the processing

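In the lenalidomide libraries all 41 genes were called higher in SPARK-ON than in control cells under every alternative run. The choice of the genes by the same difference in DMSO had largely set that outcome. For lenalidomide in SPARK-ON cells the count called higher, 1, became 3 with only the groups compared, 0 with the replicate block and 0 at an adjusted p below 0.01. It was also 0 without each SPARK-ON library in turn, while control libraries were not left out for this count. The cause was not tested. The block moved the log2 change of ANXA8 to 0.79, which lost its call. Same-numbered SPARK-ON libraries deviated with correlations of -0.006 to 0.009 from their group means, and same-numbered control libraries with -0.289 and -0.218. With so few libraries these values cannot show whether same-numbered libraries share a culture or a batch, and the labels do not say. The log2 change of LINC01234 reversed to 0.044 without SPARK-ON lenalidomide replicate 2 and to 0.0044 without SPARK-ON DMSO replicate 2; over the libraries left out it ran between -0.12 and 0.044.

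Of the neighbouring genes, 15 were higher and 0 lower within 50 kb, and 48 higher and 12 lower within 250 kb. Among genes with a mean of at least 5 CPM, an alternative chosen after seeing the data, 16 of 28 were higher (57.1%) and 2 lower, against 20.2% of all such genes. Leaving out neighbours that overlap one of the 41, also chosen later, gave 24 of 43 (55.8%). The number of genes that meet the rule was 79 with a minimum of 100 reads, 22 with a minimum of 400 and 22 with no control read allowed. Depth limits the fold of the 24 genes at 0 in control lenalidomide cells to lower bounds.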

Other observations

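With the same rule applied to the lenalidomide libraries in place of the DMSO libraries (at least 200 reads in SPARK-ON and at most 3 in control cells), 34 genes qualified, of which 27 were among the 41. The other 7 had missed the rule in DMSO. SERPINA1, the protease inhibitor alpha-1 antitrypsin, had 314 reads in SPARK-ON DMSO cells and 7 in control DMSO cells, and CTSS, the lysosomal protease cathepsin S, had 833 reads in SPARK-ON and 11 in control DMSO cells. TENM1, a teneurin, had 854 reads in SPARK-ON DMSO cells and 12 in control DMSO cells, RAP1GAP, which switches off the small GTPase RAP1, had 323 in SPARK-ON and 13 in control DMSO cells, and CACNG8, a subunit that accompanies glutamate receptors, had 309 in SPARK-ON and 14 in control DMSO cells. ZMAT1 had 291 reads in SPARK-ON DMSO cells and 17 in control DMSO cells. SPNS3 had 190 reads in SPARK-ON DMSO cells and 6 in control DMSO cells, and so missed both limits.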
